A study of Homo sapiens with 14 samples.

Results

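The genes described here are 31 genes of cholesterol and fatty acid synthesis and their regulators, taken by symbol from a list of the pathway governed by the sterol regulatory element-binding proteins (SREBPs). All 31 symbols were found among the 59250 in the count table, and 31 were tested in the gastric cancer line NUGC4 and 30 in the liver cancer line HepG2, where INSIG1 had no counts.

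Poly(A)-captured RNA was sequenced from both human cell lines, and counts of 13 libraries were used. NUGC4 was studied as wild-type parental cells (4 libraries), as clones grown from single cells after CRISPR-Cas9 targeting of ARID1A, as cells in which CRISPR interference (CRISPRi) with the guide sgRNA1 targets ARID1A (2 libraries) and as their CRISPRi vector control (1 library matched by name). HepG2 was studied as empty-vector cells (2 libraries) and as cells infected at low multiplicity with a lentivirus that carries FLAG-CTNNB1(ΔEx3)-GFP under the EF1α promoter (2 libraries), a beta-catenin without the exon that holds its degradation signal. All cells were grown in RPMI-1640 with fetal bovine serum. The ARID1A protein is part of the chromatin remodeller BAF. The knockout is described here by 1 library and CRISPRi by a single guide, HepG2 is known to carry a deletion over the same exon in a CTNNB1 allele of its own, and whether a group's libraries stem from separate cultures is not stated, so the p-values reflect only how much these libraries vary.

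SREBPs, encoded by SREBF1 and SREBF2, are made as precursors in the endoplasmic reticulum. SCAP escorts them to the Golgi for cleavage when sterols are scarce, and INSIG1 and INSIG2 hold SCAP back when sterols are plentiful. The freed fragment enters the nucleus and switches on the enzymes of the mevalonate pathway, of the steps from squalene to cholesterol and of fatty acid synthesis, with SREBF2 known mostly for sterol genes and SREBF1 for fatty acid genes. Liver cells are a main site of both syntheses, and cancer cells often run them as well.

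The promoters of 4 genes are shown because their genes carry the results. SREBF2 encodes the sterol regulator and was called in none of the 3 comparisons, though under sgRNA1 this depended on the settings of the test. HMGCS1 rose in knockout replicate 1 and with CTNNB1. SCD was called in both ARID1A comparisons, and INSIG1 was called in both and had no counts in HepG2. Each run is the 220 bases before the annotated start site, read 5′ to 3′ on the gene's strand, from RefSeq (GRCh38.p14): SREBF2 at chr22:41832885-41833104, plus strand, HMGCS1 at chr5:43313413-43313632, minus strand, SCD at chr10:100347013-100347232, plus strand and INSIG1 at chr7:155297658-155297877, plus strand. Capitals mark the CCAAT box (CCAAT, or ATTGG where it lies on the other strand), which NF-Y is known to bind beside SREBPs, and the core of the sterol regulatory element (CACNCCAC, or its reverse complement).
SREBF2: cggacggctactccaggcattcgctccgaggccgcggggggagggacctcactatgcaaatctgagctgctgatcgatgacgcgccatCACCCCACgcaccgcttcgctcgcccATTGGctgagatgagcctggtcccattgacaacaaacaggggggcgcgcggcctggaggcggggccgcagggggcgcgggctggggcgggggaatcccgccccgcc
HMGCS1: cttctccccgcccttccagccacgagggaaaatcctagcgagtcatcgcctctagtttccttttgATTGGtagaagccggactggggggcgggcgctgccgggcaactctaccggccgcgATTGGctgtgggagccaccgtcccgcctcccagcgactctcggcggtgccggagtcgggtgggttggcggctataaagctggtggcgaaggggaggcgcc
SCD: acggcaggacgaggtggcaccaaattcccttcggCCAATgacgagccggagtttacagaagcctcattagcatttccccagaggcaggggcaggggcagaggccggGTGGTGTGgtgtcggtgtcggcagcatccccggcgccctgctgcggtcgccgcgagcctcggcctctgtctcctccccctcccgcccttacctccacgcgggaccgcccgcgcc
INSIG1: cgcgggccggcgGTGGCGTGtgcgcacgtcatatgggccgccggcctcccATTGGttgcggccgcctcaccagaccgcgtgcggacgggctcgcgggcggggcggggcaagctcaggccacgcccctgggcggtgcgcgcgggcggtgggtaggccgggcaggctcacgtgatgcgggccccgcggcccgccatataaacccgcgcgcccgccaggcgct
The SREBF2 run holds the core and a CCAAT box close together, SCD and INSIG1 each hold 1 of both, and HMGCS1 holds 2 CCAAT boxes and no core in this stretch.

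RefSeq promoter windows of 300 bases (250 before to 50 after a start) were matched for 27 of the 31 genes, in 39 windows (all but ACAT2, FDFT1, SQLE and FASN). On both strands, CCAAT was found in 64.1% of these windows and in 34.6% of all 35116 windows (34.7% of those of protein-coding genes). The GC box GGGCGG was found in 89.7% against 45% (56.3% of coding), and the E-box CACGTG in 12.8% against 7.26% (8.34%). The sterol element core CACNCCAC was found in 17.9% against 5.87% (6.17%), in windows of IDI1, SC5D, SREBF2, INSIG1, ACACA and SCD. The longer form TCACNCCAC, which contains the core, was found in 2.56% against 1.13%, in SREBF2 alone among the members. These are matches of letters, some genes have several overlapping windows, and no binding was measured.

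The NUGC4 libraries held 9167761 to 17668394 counts and those of HepG2 13138681 to 23914120. Levels are CPM, counts scaled to a common library size, with sizes adjusted by the trimmed mean of M-values. ARID1A, the targeted gene, stood at 102.3 to 117.8 CPM in wild type, 33.7 in knockout replicate 1 and 134.2 in the library labelled knockout replicate 2, which goes against its label, so the knockout is described by replicate 1 alone. Under sgRNA1 ARID1A was at 57.7 and 54.4 CPM against 130.9 in the vector, and CTNNB1 in HepG2 was at 1793.6 and 1861.7 CPM against 439.9 and 441.5. The share of ribosomal RNA was 8.04% to 11.7% in the wild-type libraries, 6.3% in knockout replicate 1 and 0.162% to 0.177% in the other NUGC4 libraries. The mitochondrial share was 0.985% to 2.5%, 0.832% and 7.96% to 8.23% in the same order, so wild type and knockout replicate 1 stand apart from the rest of NUGC4. All 6 general epithelial markers and all 10 hepatocyte markers were at 1 CPM or more in NUGC4 and HepG2 respectively, while 3 of 10 gastric and intestinal markers reached 1 CPM in wild-type NUGC4 and 4 of the 10 (TFF2, TFF3, GKN1 and CDH17) had no count. In bulk RNA, fewer cells of a kind and less RNA per cell cannot be told apart.

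Of the 31 genes, 16 stood higher in knockout replicate 1 than in wild type, with the largest rises in acetate use and desaturation. These 16 rose and 3 fell, against 19.5% higher and 18.7% lower among the 18913 genes tested; the members' median log2 fold change was 0.39 and that of all genes −0.07. The knockout library lay above all wild-type libraries in 18 of 31 members (36% of all genes tested) and below them in 6 (36.6%). Calls are at an adjusted p under 0.05 in the quasi-likelihood test of edgeR with Benjamini-Hochberg adjustment over all genes. The rises ran from 0.36 (DHCR7) to 1.47 (ACSS2) on the log2 scale. The knockout is 1 library here, and its spread was taken from the groups that have replicates. The summed level of the gastric and intestinal markers was 1552.2 CPM in this library and 542.0 to 579.0 in wild type. That of the epithelial markers was 8762.2 against 4356.0 to 4879.0. The epithelial sum was also high in the CRISPRi vector library (9281.7 CPM) and in the library labelled knockout replicate 2 (9860.9). The part of these markers in the results was not tested. CLDN18, named after its value was seen, accounts for the higher gastric sum: it rose from a mean of 114.2 to 1179 CPM, while VIL1 fell from 214.6 to 127.9 and MUC1, MUC5AC and TFF1 were not called.

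In the mevalonate pathway 4 of 8 members rose and none fell. ACAT2, whose thiolase joins acetyl-CoA units at the entry to the pathway, was at 37.7, 30.5, 37.8 and 40 CPM in wild type and 78.9 in the knockout, a log2 fold change of 1.08 ± 0.13 (SE, adjusted p = 3.3e-06 by edgeR). The knockout library lay above every wild-type library. ACAT2 shares 2996 exonic bases with genes on the other strand, TCP1 among them, and the sources used here do not say whether strand was used in counting. HMGCS1, which makes HMG-CoA, was at 235.8, 230.0, 221.4 and 261.0 CPM in wild type and 404.8 in the knockout (0.74 ± 0.11, edgeR adjusted p = 2.6e-05). FDPS, which builds farnesyl diphosphate, was at 111.2, 118.7, 124.9 and 115.7 CPM and rose to 181.2 (0.59 ± 0.10, edgeR adjusted p = 0.00019). IDI1, the isomerase of the isoprene unit, was at 87.4, 72.3, 71.5 and 86.2 CPM and rose to 116.7 (0.52 ± 0.13, edgeR adjusted p = 0.0031). FDPS and IDI1 have 10 and 3 pseudogene symbols in the table, with which reads could be shared, CYP51A1 has 3, HSD17B7 has 2 and SCD has 1. MVK, PMVK and MVD, the kinases and decarboxylase in between, and GGPS1, which makes the longer geranylgeranyl diphosphate, were not called (log2 fold changes −0.10 to 0.45).

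Between squalene and cholesterol 7 of 11 members rose and 1 fell. MSMO1, which starts the removal of the methyl groups at carbon C4, showed the largest rise among them, from 147.3, 150.9, 137.4 and 144.6 CPM to 272.5 (0.88 ± 0.10, edgeR adjusted p = 1.5e-06). SQLE, the squalene epoxidase and a rate-limiting enzyme of the pathway, was at 114.2, 113.7, 98.1 and 109.3 CPM and rose to 188.7 (0.76 ± 0.11, edgeR adjusted p = 2.5e-05). SC5D, a late desaturase, rose from 76.7, 67.5, 61.6 and 74.4 CPM to 117.9 (0.72 ± 0.12, edgeR adjusted p = 0.00015). Each of these 3 lay above the whole wild-type range. FDFT1, the squalene synthase, was at 261.4, 245.2, 248.7 and 267.0 CPM in wild type and at 386.7 in the knockout (0.57 ± 0.10). CYP51A1, the lanosterol demethylase, was at 336.7, 305.8, 299.8 and 339.9 CPM and then 465.9 (0.51 ± 0.11), with 2943 exonic bases shared with a gene on its own strand. EBP, the sterol isomerase, and DHCR7, which makes the last double-bond reduction to cholesterol, rose by 0.39 and 0.36 on the log2 scale, with wild-type ranges of 30.0 to 36.7 and 106.1 to 118.4 CPM and knockout values of 44.9 and 145.7.

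LSS, the cyclase that turns squalene epoxide into lanosterol, went the other way. It was at 182.6, 200.6, 225.4 and 197.9 CPM in wild type and 140.9 in the knockout, and fell by 0.55 ± 0.12 on the log2 scale (edgeR adjusted p = 0.0014). The knockout value was below all wild-type libraries. TM7SF2, NSDHL and HSD17B7, enzymes of the reduction and demethylation steps, were not called (−0.14 to 0.08).

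Among the regulators neither transcription factor was called: SREBF1 was at 214.5 to 274.0 CPM in wild type and 226.4 in the knockout, and SREBF2 at 324.4 to 399.3 and 392.8. SCAP, the escort, was at 322.1, 341.2, 401.7 and 314.4 CPM and fell to 191.5 (log2 fold change −0.88 ± 0.13, edgeR adjusted p = 4e-05). INSIG1 was at 145.5, 145.9, 143.5 and 140.0 CPM and fell to 118.2 (−0.31 ± 0.11, edgeR adjusted p = 0.028), and INSIG2 was not called (−0.23 ± 0.15). INSIG1 was past the threshold in 9 of 17 alternative settings, and missed it without sgRNA1 replicate 1 or 2 or wild-type replicate 2 in the fit. STARD4, a carrier of sterols between membranes, was at 33.8, 33.9, 31.7 and 36.9 CPM and rose to 67.0 (0.94 ± 0.12, edgeR adjusted p = 7.7e-06).

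In fatty acid synthesis 4 of 6 members rose. ACSS2, which makes acetyl-CoA from acetate, was at 36.9, 30.8, 36.7 and 30.5 CPM in wild type and 95.2 in the knockout (1.47 ± 0.13, edgeR adjusted p = 4.5e-08), the largest fold among the 31 genes. SCD, which puts the double bond into stearate and palmitate, was at 882.9, 882.3, 815.8 and 839.6 CPM and rose to 2065.7 (1.24 ± 0.10, edgeR adjusted p = 1.3e-08). ELOVL6, the elongase from palmitate to stearate, rose from 9.78, 8.17, 8.04 and 6.95 CPM to 14.4 (0.77 ± 0.19, edgeR adjusted p = 0.0043). ACLY, which splits citrate into acetyl-CoA, rose by 0.47 from a wild-type range of 397.1 to 427.7 CPM to 583.9. The enzymes of the central chain, ACACA (malonyl-CoA synthesis) and FASN (chain building), were not called: ACACA was at 430.5 to 465.7 CPM and 403.5 in the knockout, and FASN at 1366.4 to 1741.3 and 1726.9.

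**Figure D1:**
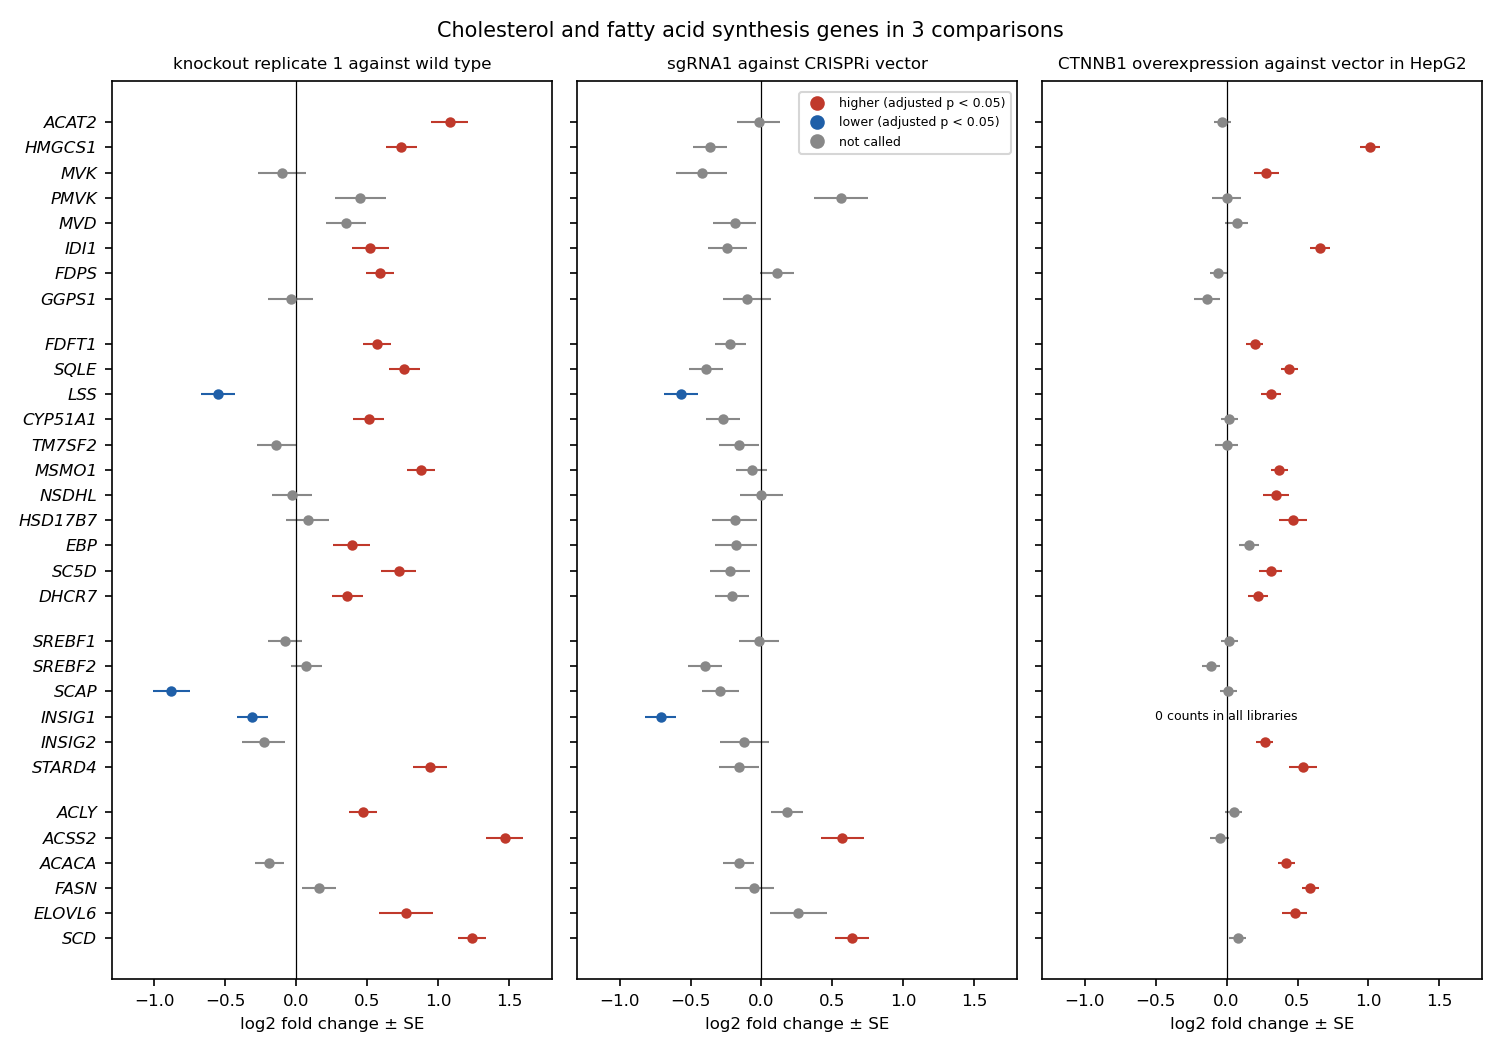
Log2 fold change of each gene (x axis, bars ± SE) in the 3 comparisons, ordered by role from the mevalonate steps at the top to fatty acid synthesis at the bottom. Red points are higher and blue points lower at an adjusted p under 0.05 in edgeR: 16 and 3 for knockout replicate 1, 2 and 2 for sgRNA1, and 16 and 0 for CTNNB1.

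With sgRNA1 few of the genes were called, and none of the 11 enzymes from squalene on had a log2 fold change above 0. Of these 11 only LSS was called. All were compared with the same vector library, which itself stood above wild type for all 11 (4 called higher). Against the vector library 2 members rose and 2 fell, where 4.62% of the 18913 genes tested were called higher and 4.11% lower; the median log2 fold change was −0.16 for the members and 0 for all genes. Both sgRNA1 libraries were below the vector library in 22 of 31 members (39.5% of all genes tested) and above it in 6 (40.1%). At an unadjusted p under 0.05 in the same edgeR test 3 members were higher and 8 lower. The vector group is a single library, and the number called lower ran from 1 to 11 over the alternative settings, with 1 without sgRNA1 replicate 1 and 5 without wild-type replicate 3 or 4. The gastric and intestinal markers summed to 1812.7 and 1819.9 CPM under sgRNA1 and 742.1 in the vector; their part was not tested. Here too CLDN18 (187 CPM in the vector, a mean of 1220 under sgRNA1) makes up the gain, with VIL1, MUC1, MUC5AC and TFF1 not called. Of the adipocyte markers CIDEC and PLIN1, fat droplet proteins also named after their values were seen, rose under sgRNA1. Their log2 fold changes were 1.51 and 1.44, to means of 14.4 and 3.53 CPM. In knockout replicate 1 CIDEC rose (1.06) and PLIN1 was not called (−0.22). CIDEC also rose in the vector library against wild type (1.08), where PLIN1 was not called (−0.93). ADIPOQ, LEP and FABP4 had no count in the vector or sgRNA1 libraries.

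The 4 genes called under sgRNA1 were also called in knockout replicate 1 and in the same direction. How often this held over all genes called under sgRNA1 was not counted, so the agreement cannot be read as particular to these members. SCD was at 1181.1 CPM in the vector and 1825.0 and 1893.7 under sgRNA1 (0.64 ± 0.12, edgeR adjusted p = 0.0014). ACSS2 was at 30.99 CPM in the vector and 45.4 and 47.3 under sgRNA1 (0.57 ± 0.15, edgeR adjusted p = 0.026); it was no longer called when either sgRNA1 library was left out. INSIG1, the sterol-dependent brake, was at 152.7 CPM in the vector and 96.7 and 91.3 under sgRNA1 (−0.71 ± 0.11, edgeR adjusted p = 0.00038). LSS was at 210.6 CPM in the vector and 139.8 and 146.8 under sgRNA1 (−0.57 ± 0.12, edgeR adjusted p = 0.0059; 0.068 without sgRNA1 replicate 1). In all 4 both sgRNA1 libraries lay apart from the vector library, which follows from the call on these same libraries and is no further support.

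**Figure D2:**
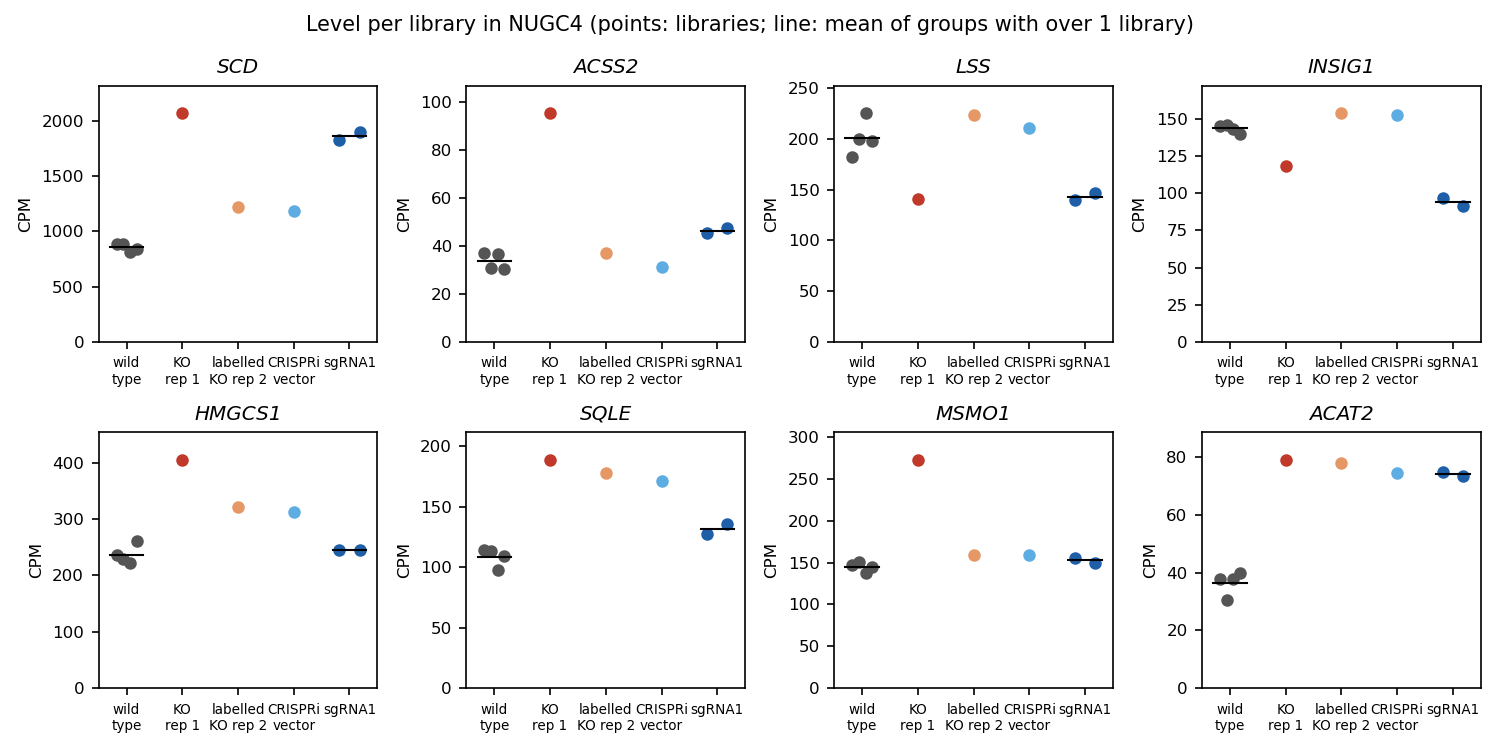
CPM (y axis, from 0) of 8 genes in every NUGC4 library, by group; lines are means of groups with more than 1 library. SCD, ACSS2, LSS and INSIG1 were called under sgRNA1 against the vector. ACAT2, SQLE, HMGCS1 and SCD were called higher than in wild type both in the vector library and in knockout replicate 1.

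The other 27 members were not called under sgRNA1. HMGCS1 was at 311.6 CPM in the vector and 244.7 and 245.8 under sgRNA1 (−0.36 ± 0.12, edgeR adjusted p = 0.079). SQLE was at 171.3 and then 127.3 and 135.5 (−0.39 ± 0.12, edgeR adjusted p = 0.055), and SREBF2 at 369.3 and then 274.5 and 291.4 (−0.40 ± 0.12, edgeR adjusted p = 0.057). These 3 missed the threshold here, and with only the compared groups in the fit 11 members were called lower. HMGCS1 and SQLE stayed without a call in 8 of 15 alternative settings each and SREBF2 in 7, with negative log2 fold changes in all settings. PMVK, the second kinase of the mevalonate pathway, was at 17.2 CPM in the vector and 23.5 and 27.7 under sgRNA1 (0.56 ± 0.19, edgeR adjusted p = 0.072). SCAP was at 193.7 CPM in the vector and 153.6 and 166.8 under sgRNA1 (−0.29 ± 0.13, not called). FASN (−0.05), ACACA (−0.16) and ACLY (0.18) were not called either.

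The difference between the knockout effect and the CRISPRi effect was tested in the same fit. It was called higher for 12 members and lower for none, against 5% higher and 4.02% lower among all genes; at an unadjusted p under 0.05 it was 17 and 1 in edgeR, and DESeq2 and limma-voom each called 1 lower. SQLE had the largest difference, 1.16 ± 0.16 on the log2 scale (edgeR adjusted p = 2e-04), followed by ACAT2, HMGCS1 and STARD4 at 1.10. The 12 hold 6 of the 11 sterol enzymes. For LSS the difference was 0.02 ± 0.17 and for INSIG1 0.40 ± 0.15, neither called. No member was called when the library labelled knockout replicate 2 was added to the knockout group.

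**Figure D3:**
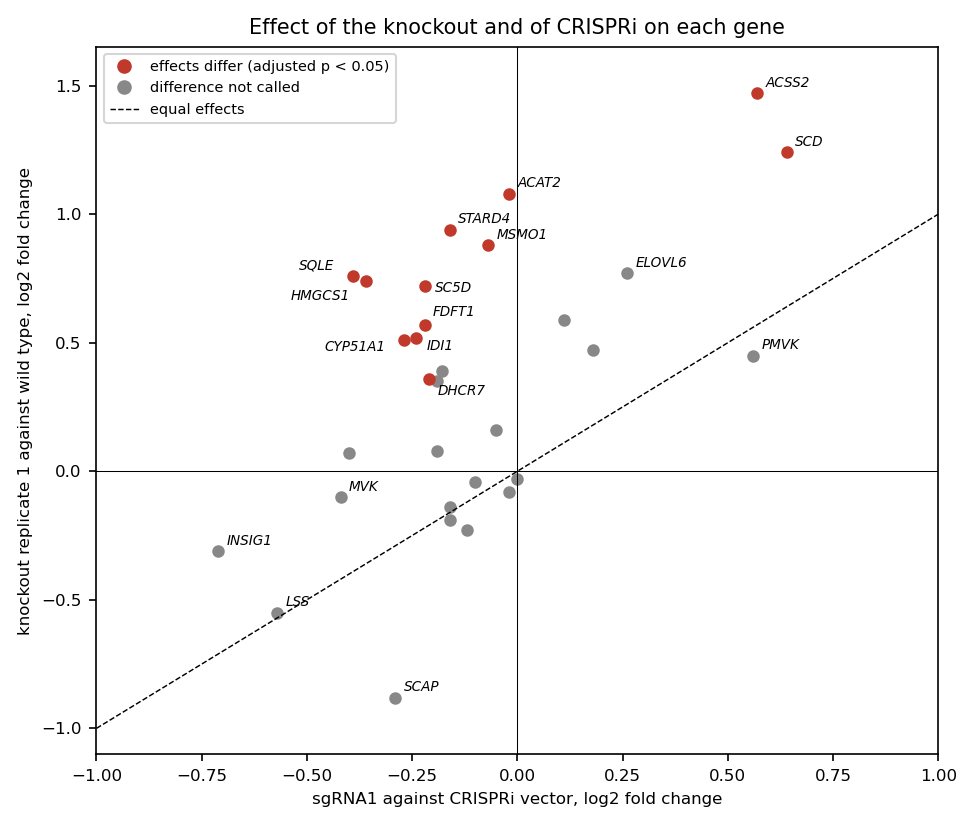
Log2 fold change of each member in knockout replicate 1 against wild type (y axis) and under sgRNA1 against the vector (x axis); red points differ between both effects at an adjusted p under 0.05 in edgeR, and the dashed line marks equal effects. The 12 red points lie above the line, and LSS lies on it.

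The vector library, with ARID1A intact, also differed from wild type in many of these genes. Compared with wild type, the CRISPRi vector library was called higher for 13 members and lower for 4 (23.5% and 20.7% of all genes); this contrast was added after seeing the data and shares the wild-type libraries with the knockout contrast. The library labelled knockout replicate 2 differed from the vector library by 2.57 (chi-square of the counts over genes, divided by its degrees of freedom). This is close to the replicate pairs of sgRNA1 (3.75) and HepG2 vector (2.73). From knockout replicate 1 it differed by 278. The wild-type replicate pairs were further apart than those of the other groups, at 6.62 to 20.8. Of the 16 members called higher in knockout replicate 1, 10 were also called higher in the vector library. It lay above all wild-type libraries for 15 of the 16, all but ACSS2. The same shares over all genes called higher in the knockout were not counted. The vector was at or above the knockout for IDI1, FDPS, FDFT1, DHCR7 and ELOVL6. ACAT2 was at 74.5 CPM in the vector and 77.7 in the library labelled knockout replicate 2, against 78.9 in replicate 1. HMGCS1 was at 311.6 and 321.9 CPM there against 404.8, SQLE at 171.3 and 177.8 against 188.7, and SCD at 1181.1 and 1216.9 against 2065.7. MSMO1 (159.5 and 158.8 against 272.5), SC5D (78.2 and 70.2 against 117.9) and ACSS2 (30.99 and 37.1 against 95.2) stood apart in replicate 1.

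SCAP, lower in the knockout, was also low in the vector (193.7 CPM) and in the library labelled knockout replicate 2 (207.7). LSS and INSIG1 were not: LSS was at 210.6 and 224.3 CPM and INSIG1 at 152.7 and 153.7. FASN was at 997.4 CPM in the vector and 1042.7 in the library labelled replicate 2, below every wild-type library, while replicate 1 was within their range. NSDHL, the dehydrogenase of the demethylation steps, was at 27.2 to 32.5 CPM in wild type, 30.9 in replicate 1 and 51.4 and 59.8 in these other libraries. These libraries also carry the low ribosomal and high mitochondrial shares given above; their part in the differences was not tested. With the knockout group as named, both libraries together, 14 members were higher and 1 lower, and MSMO1 (0.55), SC5D (0.40), CYP51A1 (0.35), EBP (0.34), LSS (−0.16) and INSIG1 (−0.10) were not called, while PMVK (0.66) and MVD (0.56) were.

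In HepG2, cells with the stabilised CTNNB1 had more RNA of HMGCS1 and, by smaller folds, of most sterol enzymes and the central fatty acid enzymes. Of the 30 members tested 16 rose and none fell, where 12.8% of the 15703 genes tested were called higher and 11.4% lower; the median log2 fold change was 0.21 for the members and 0 for all genes. At an unadjusted p under 0.05 in edgeR 17 were higher and 0 lower, and DESeq2 and limma-voom called 0 lower. Both CTNNB1 libraries were above both vector libraries in 19 of 31 members (33.7% of all genes tested), and below them in 1, GGPS1 (26.1%). Only 4 members had an absolute log2 fold change of 0.5 or more, and 10 were called when HepG2 vector replicate 2 was left out. The 10 hepatocyte markers summed to 40840.4 and 41063.7 CPM in the vector and 60984.3 and 62092.1 with CTNNB1. ALB, named after its value was seen, rose from a mean of 13490 to 25270 CPM. The other hepatocyte markers were called higher too, except HNF4A and APOA2, which were not called. The epithelial markers summed to 2554.1 and 2691.9 CPM in the vector and 1836.8 and 1984.0 with CTNNB1. The part of both sets of markers was not tested.

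HMGCS1 was at 47.7 and 52.4 CPM in the vector and 103.2 and 102.8 with CTNNB1, a log2 fold change of 1.01 ± 0.07 (edgeR adjusted p = 2.6e-11). IDI1 was at 42.6 and 45.4 CPM and rose to 71.7 and 70.3 (0.66 ± 0.07, edgeR adjusted p = 1.7e-07). For both genes the spread within a group was small beside the gap between groups. MVK, the mevalonate kinase, rose by 0.28 from 23.8 and 24.5 CPM to 28.4 and 31.6. ACAT2, FDPS, PMVK, MVD and GGPS1 were not called (−0.14 to 0.07).

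Of the 11 enzymes from squalene on 8 rose, by 0.20 to 0.47. SQLE rose from 110.3 and 109.9 CPM to 151.3 and 152.8 (0.44 ± 0.06, edgeR adjusted p = 6.4e-06). HSD17B7, the ketoreductase, rose from 20.1 and 17.5 CPM to 26.6 and 26.2 (0.47 ± 0.10, edgeR adjusted p = 0.0012). LSS, which fell in both ARID1A comparisons, rose here from 102.2 and 96.2 CPM to 120.1 and 131.2 (0.31 ± 0.07, edgeR adjusted p = 0.00089). MSMO1 (0.37), NSDHL (0.35), SC5D (0.31), DHCR7 (0.22) and FDFT1 (0.20) rose as well. DHCR7 and FDFT1 each kept their call in 6 of 12 alternative settings, NSDHL and SC5D in 9 and MSMO1 in 11. MVK kept its call in 5 of 12. CYP51A1 (0.02), TM7SF2 (0.00) and EBP (0.16) were not called.

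Neither transcription factor was called here either, with SREBF1 at 102.3 and 102.4 CPM in the vector and 104.9 and 106.2 with CTNNB1, and SREBF2 at 368.2 and 358.7 and then 325.1 and 363.3. SCAP was at 140.7 and 138.0 CPM and then 137.4 and 149.1. INSIG2 rose by 0.27 ± 0.06, from 114.3 and 122.9 CPM to 141.5 and 149.8. STARD4 rose from 17.3 and 19.8 CPM to 27.6 and 27.7 (0.54 ± 0.10, edgeR adjusted p = 0.00021), so the sterol carrier rose in knockout replicate 1 and with CTNNB1.

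In fatty acid synthesis FASN rose from 809.3 and 781.5 CPM to 1151.8 and 1295.2 (0.59 ± 0.06, edgeR adjusted p = 4e-08). ACACA, its malonyl-CoA supplier, rose from 112.5 and 118.0 CPM to 150.8 and 163.8 (0.42 ± 0.06), and ELOVL6 from 29.8 and 35.3 to 50.2 and 43.4 (0.48 ± 0.09). ACLY (0.05), ACSS2 (−0.05) and SCD (0.08) were not called. These 3 rose in knockout replicate 1, where FASN and ACACA were not called. The lines were fitted separately, and the difference between the knockout and CTNNB1 effects was not tested.

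**Figure D4:**
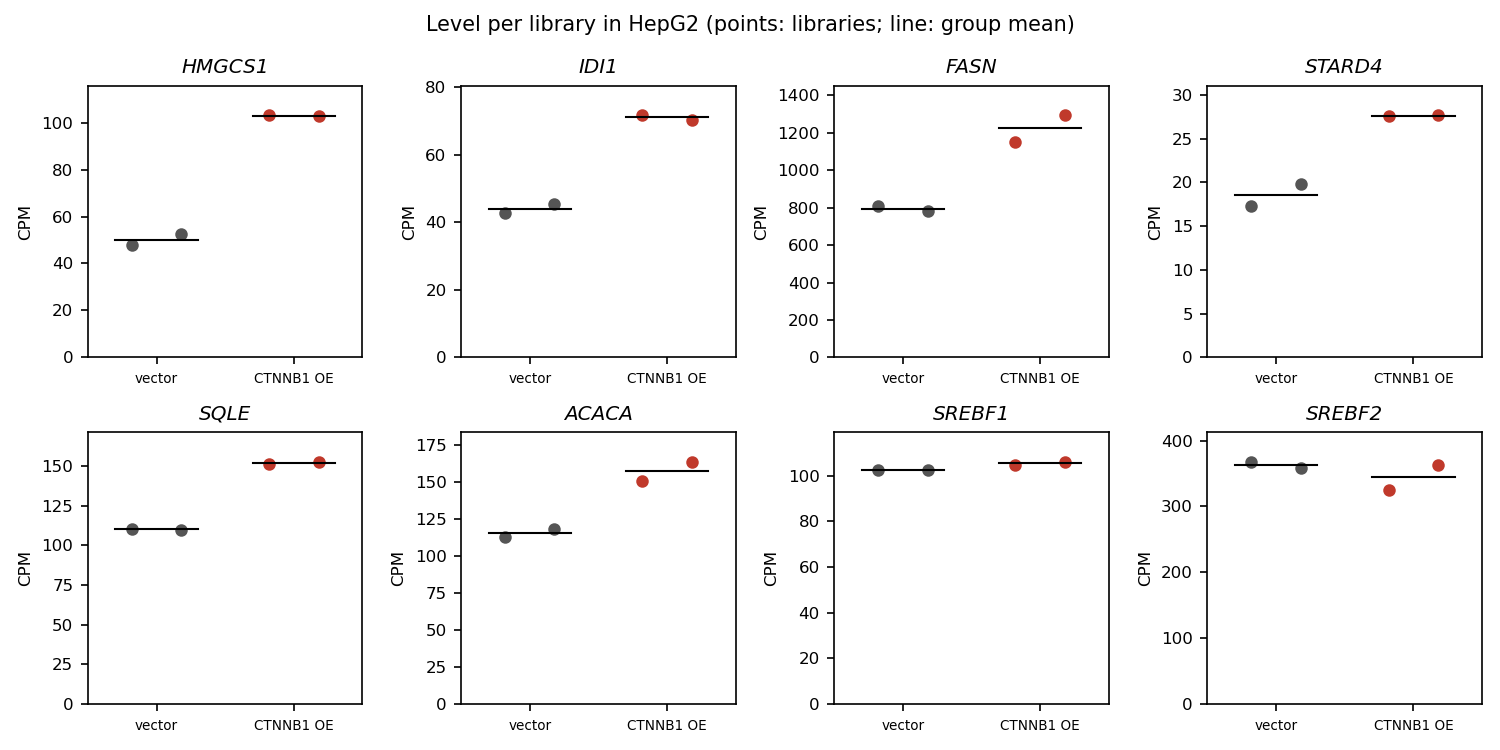
CPM (y axis, from 0) of 8 genes in the 2 vector and 2 CTNNB1 libraries of HepG2, with the group mean as a line. HMGCS1, IDI1, FASN, STARD4, SQLE and ACACA are higher in both CTNNB1 libraries, while SREBF1 and SREBF2 stay near the vector level.

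Side by side, 9 genes rose both in knockout replicate 1 and with CTNNB1, which is 56.2% of the 16 in either comparison (over all genes tested in both lines, 14% of those higher in the knockout and 24.7% of those higher with CTNNB1): HMGCS1, IDI1, FDFT1, SQLE, MSMO1, SC5D, DHCR7, STARD4 and ELOVL6. These comparisons share no library. Of the 9, MSMO1 and SC5D were not called in the CRISPRi vector library against wild type, and the others were called higher there as well. MVK, NSDHL, HSD17B7, INSIG2, ACACA and FASN rose with CTNNB1 and were not called in the knockout. PMVK, MVD, GGPS1, TM7SF2, SREBF1 and SREBF2 were called in none of the 3 comparisons. That held in 7 of 15 alternative settings for SREBF2 under sgRNA1 and in 11 of 17 for MVD in knockout replicate 1. For PMVK it held in 10 of 15 under sgRNA1 and in 12 of 17 in knockout replicate 1.

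Against wild-type NUGC4, vector-control HepG2 was higher for 10 members and lower for 15, where 40.4% and 44.5% of all genes were called, so the members' shares (32.3% and 48.4%) are near those of all genes; line, vector and handling cannot be told apart in this comparison. Per kilobase of exon, FASN (161.7 CPM per kb) and SCD (159.5) were the most abundant members in wild-type NUGC4, and their order is within the spread of FASN (SD 181.2 on a mean of 1514.3 CPM, n = 4). CYP51A1 (89.4) and ACLY (79.0) followed, and ELOVL6 (1.13) was the lowest. In HepG2 SCD stood far above the rest (494.9 CPM per kb), ahead of FASN (84.9), ACLY (84.4) and FDPS (83.8).

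HMGCS1 was 237.1 ± 17.0 CPM in wild-type NUGC4 (SD, n = 4) and 47.7 and 52.4 in HepG2 vector cells (log2 fold change −2.24 ± 0.09, edgeR adjusted p = 1.6e-16), so its rise with CTNNB1 left it below the wild-type NUGC4 level. ACACA differed in the same direction (449.2 ± 16.4 CPM in NUGC4, 112.5 and 118.0 in HepG2, −1.96 ± 0.08). ACAT2 differed in the opposite one (36.5 ± 4.12 in NUGC4, 190.2 and 179.5 in HepG2, 2.34 ± 0.09). SREBF2 was not called between the lines (367.2 ± 32.3 CPM against 368.2 and 358.7, −0.02 ± 0.08), whereas SREBF1 was lower in HepG2 (234.6 ± 28 against 102.3 and 102.4, −1.20 ± 0.09).

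**Figure D5:**
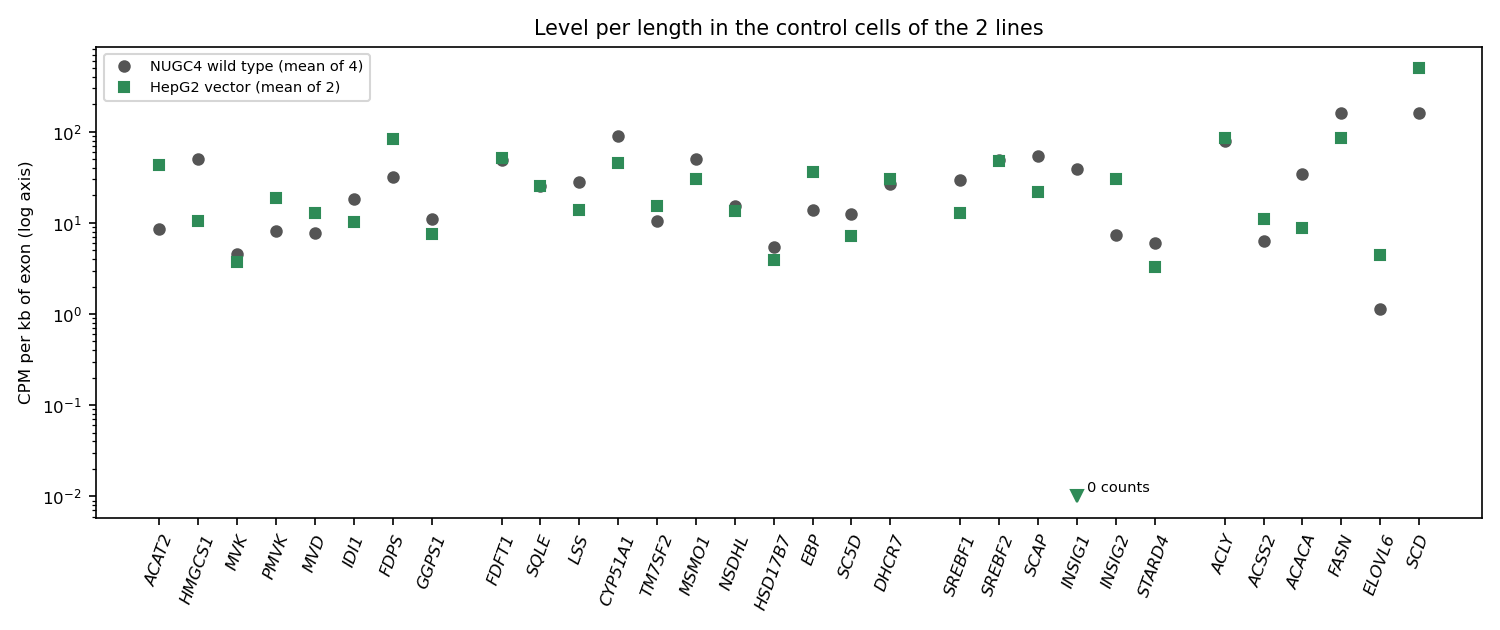
Mean CPM per kb of exon (y axis, log scale) of each member in wild-type NUGC4 (circles, 4 libraries) and vector-control HepG2 (squares, 2 libraries). SCD is the highest gene in HepG2 at 494.9, and INSIG1, marked by a triangle at the foot of the axis, had 0 counts there.

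INSIG1 had 0 counts in all 4 HepG2 libraries and 1463 to 2098 counts in the 4 wild-type NUGC4 libraries. With a floor of 3 counts over the 2 vector libraries (0.108 CPM), INSIG1 was at least 1336-fold lower in vector-control HepG2 than in wild-type NUGC4, and over all 4 HepG2 libraries at least 3118-fold lower. INSIG1-DT, the divergent transcript at the same promoter, also had 0 counts in HepG2 and 11 to 16 in wild-type NUGC4. The nearest genes with more than 2 counts in HepG2 were PAXIP1-DT at −294.4 kb from the start of INSIG1 (183 to 340 counts) and RBM33-DT at 344.0 kb (60 to 108 counts). Apart from INSIG1 and INSIG1-DT, no gene between them had more than 8 counts over the NUGC4 libraries or 2 over those of HepG2. INSIG2, the other INSIG gene, was 4.04-fold higher in HepG2 (29.4 ± 1.98 CPM in NUGC4, 114.3 and 122.9 in HepG2, edgeR adjusted p = 1.6e-15).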

How the data were processed

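The authors deposited whole-number read counts per gene symbol, and per the labels' protocols RNA was extracted with TRIzol and captured by its poly(A) tail. Per the submitters' processing notes, STAR 2.7.10a and hg38 were used; no source used here names the counting tool, the gene annotation or whether strand was used. Columns were matched to samples by name: 13 matched, and 1 matched no sample and was used in no step. Total counts were 9167761 to 23914120 per library; the spread between libraries sets the errors, and the floor for a gene without counts is 3 counts over a group.

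Counts were tested in R 4.3.3 with edgeR 4.0.16 (TMM factors, filterByExpr, quasi-likelihood test, Benjamini-Hochberg adjustment over all genes). The 8 NUGC4 libraries without the one labelled knockout replicate 2 were fitted together with 1 mean for each group, which leaves 4 residual degrees of freedom; a fit of the 4 HepG2 libraries leaves 2 and the comparison of lines 6. Errors are standard errors of the log2 fold change. CPM use TMM factors over all 13 libraries, and lengths per kb are exonic bases of GENCODE 29. Promoter windows and gene positions are from RefSeq (GRCh38.p14). The code was tested on simulated data.

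The members and lists were chosen with earlier results of these data known. The rule for named genes took all 31 members, both targeted genes and up to 4 genes of smallest adjusted p per lipid list and comparison; members called with a log2 fold change of 0.5 or more in size are given by library. Alternatives were DESeq2 1.42.0 (size factors; Wald test), limma-voom (limma 3.58.1), no filter, a fold threshold, other sets of libraries, a replicate block and leaving out each library.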

Additional observations from a re-analysis of the deposited data

Results flagged for a closer look

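In 12 genes the effect of the knockout replicate 1 (against wild type) and the effect of sgRNA1 (against the CRISPRi vector) differed in a test of the difference itself (edgeR, adjusted p under 0.05 over all genes). The knockout effect was the higher in each. On the log2 scale the difference was 1.16 for SQLE, 1.10 for ACAT2, HMGCS1 and STARD4, 0.95 for MSMO1, 0.94 for SC5D and 0.90 for ACSS2. It was 0.79 for FDFT1, 0.78 for CYP51A1, 0.76 for IDI1, 0.60 for SCD and 0.57 for DHCR7. SCD and ACSS2 rose in both comparisons, and the other 10 were called in the knockout and not under sgRNA1. The CRISPRi vector library, the control of sgRNA1, enters this difference. No gene of the 31 was called in this difference with both libraries labelled knockout in the group. In the wild-type group of 4 no library of a member stood apart by Dixon's test, which chance alone trips in about 1 in 20 groups.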

How the results depend on the processing

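The knockout calls among members were 13 to 19 higher over the alternative settings. Lower calls were 3 in the main fit, 1 with the group as named, and 2 to 3 over settings that left out a library. INSIG1 (−0.31) dropped out where the log2 fold change also had to reach 0.5 in size. ACACA and FASN, not called in the main fit, stayed so in 15 of 17 alternatives each, and INSIG2 in 16. With the library labelled replicate 2 in place of replicate 1, an alternative chosen after seeing the data, LSS (0.12), SC5D (−0.03), INSIG1 (0.06), NSDHL (0.93) and FASN (−0.57) changed sign, as did MVK, GGPS1, TM7SF2 and SREBF1, which neither fit called. For sgRNA1, leaving out a library gave 1 to 3 higher and 1 to 5 lower; 5 were lower in DESeq2, in limma-voom and with all matched libraries in 1 fit, and 11 with the replicate block or with only the compared groups. For CTNNB1, 4 were higher when the log2 fold change also had to reach 0.5 in size, 10 with all matched libraries in 1 fit and 10 to 16 without a library; HMGCS1, IDI1, FASN and STARD4 kept their call in all 12 alternatives. With the replicate block 13 were higher, and with crossed numbers, chosen after seeing the data, 18 were higher and 1 lower. The difference between the ARID1A effects was higher for 0 members as named and 8 to 16 without a library; 1 was lower without the filter, in DESeq2 and in limma-voom, and 0 to 1 without a library (1 without wild-type replicate 1, 3 or 4). Some settings hold fewer libraries or genes, and the cause of these changes was not tested. Between the lines 8 to 10 members were higher and 13 to 19 lower.

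Over all genes, sgRNA1 calls were 874 higher and 778 lower, and 2251 and 1698 with the replicate block, 2184 and 1966 with only the compared groups, and 421 to 1320 higher and from 327 lower without a library. CTNNB1 calls were 2014 and 1790, and 1121 and 1071 in DESeq2, 640 and 686 at the larger fold, 895 and 619 with all libraries, 1212 and 1191 without HepG2 vector replicate 1, and 2807 lower with crossed numbers. Lower knockout calls were 3546, and 1870 as named. The difference had 945 and 761, and 3 and 0 as named, 2619 and 2075 with the library labelled replicate 2 alone, and from 466 higher and 349 to 1192 lower without a library. Whether replicate numbers pair the libraries cannot be told from these data. Deviations across genes correlated at −0.24 for HepG2 vector 1 and CTNNB1 1. With 2 libraries per group, the value for CTNNB1 2 is then 0.24 by construction. For wild type and sgRNA1 they correlated at 0.14 and 0.07, but wild type is not the control of sgRNA1. Single-library groups limit every ARID1A comparison, and ELOVL6 and PMVK have the lowest CPM of the members in wild-type NUGC4.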

Other observations

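Around the 31 genes, 8 lists of 106 other lipid genes were counted in the same fits, where 19.5% of all genes were higher and 18.7% lower in the knockout, 4.62% and 4.11% under sgRNA1 and 12.8% and 11.4% with CTNNB1. In knockout replicate 1 the list of sterol transport, uptake and esterification had 8 higher and 0 lower of 12 tested, LXR and sterol efflux 3 and 0 of 7, other fatty acid synthesis, elongation, desaturation and activation 11 and 3 of 23, triglyceride synthesis and droplets 5 and 1 of 9, SREBP processing and sterol sensing 5 and 1 of 11, sterol reductase, electron supply and scaffold 3 and 1 of 7, fatty acid oxidation 4 and 1 of 16 and the nonsterol isoprenoid branch 2 and 1 of 14; the higher shares of the last pair (25% and 14.3%) are near that of all genes. Under sgRNA1 these lists had at most 4 higher (other fatty acid genes) and 2 lower. In the CRISPRi vector against wild type (23.5% and 20.7% of all genes), sterol transport had 6 higher and 2 lower of 12. There, LXR and efflux had 2 and 1 of 7, other fatty acid genes 12 and 1 of 23 and triglyceride synthesis 3 and 1 of 9. SREBP processing had 4 and 0 of 11, the sterol reductase list 4 and 0 of 7, oxidation 10 and 2 of 16 and the isoprenoid branch 6 and 1 of 14. ABCG1, a sterol exporter and LXR target, rose from a mean of 3.37 CPM in wild type to 46.2 in the knockout (log2 fold change 3.76 ± 0.19) and from 3.05 in the vector to 21.8 under sgRNA1 (2.82 ± 0.27, edgeR adjusted p = 1.7e-06). ACSL5, which activates long-chain fatty acids, rose by 1.56 ± 0.10 and 1.08 ± 0.12, and the elongase ELOVL1 by 1.25 ± 0.10 and 0.97 ± 0.12. TMEM97, an NPC1-binding protein, fell by 1.05 ± 0.14 and 0.68 ± 0.14. SOAT1, which esterifies cholesterol, rose by 0.69 ± 0.17 in the knockout and fell by 1.26 ± 0.19 under sgRNA1, and ELOVL7 and FADS1 rose by 1.25 ± 0.11 and 1.20 ± 0.12 in the knockout. LBR, a sterol reductase of the nuclear membrane, fell by 0.75 ± 0.13 in the knockout.

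With CTNNB1 in HepG2 the same lists had 1 higher and 2 lower of 13 (sterol transport), 2 and 1 of 6 (LXR and efflux), 7 and 4 of 22 (other fatty acid genes), 3 and 3 of 10 (triglyceride synthesis), 4 and 2 of 11 (SREBP processing), 1 and 0 of 8 (sterol reductase list), 3 and 4 of 16 (oxidation) and 1 and 0 of 14 (isoprenoid branch). ABCA1, a cholesterol exporter, rose from a mean of 73.1 to 131.5 CPM (0.81 ± 0.07, edgeR adjusted p = 6.1e-10), and PPARA, a regulator of fatty acid oxidation, from 44.3 to 75.2 (0.73 ± 0.08). AGPAT2, an acyltransferase of triglyceride synthesis, fell by 1.30 ± 0.11 with CTNNB1 and rose by 1.04 ± 0.13 in the knockout. PPARGC1A, a coactivator of oxidation genes, fell by 0.50 ± 0.09 with CTNNB1, from a mean of 42.4 CPM. In NUGC4 it fell by 3.44 ± 0.58 in the knockout, from a mean of 3.99 to 0.37 CPM, and by 1.47 ± 0.39 under sgRNA1.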
